A study of Arabidopsis thaliana with 33 samples.

Results

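The genes described here are 4 tapetal transcription factors of the basic helix-loop-helix (bHLH) family in Arabidopsis thaliana: AMS (ABORTED MICROSPORES, AT2G16910), bHLH010 (AT2G31220), bHLH089 (AT1G06170) and bHLH091 (AT2G31210). They were chosen by locus, and each had 1 probe among the 26090 gene probes of a long-oligonucleotide array, of which the annotation tied 13912 to 13698 loci. In the RefSeq gene table, bHLH010 and bHLH091 are near neighbours with 1 other gene, AT2G31215, between them. The measurements were ratios of mutant to wild-type RNA on 33 two-colour arrays, so they show differences between genotypes and no level within a genotype.

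The tapetum is the nurse tissue that lines the anther locule and feeds the developing microspores. There, DYT1 and TDF1 act upstream of AMS, and AMS acts upstream of MYB80 and MS1. The genes bHLH010, bHLH089 and bHLH091 act redundantly downstream of DYT1, with which their proteins can form dimers, and AMS switches on genes for pollen wall material.

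Flowers of ap3, nzz (spl/nzz) and ms1 plants were each set against wild type on the same array. AP3 is a homeotic gene that specifies petals and stamens, the SPL/NZZ protein initiates sporogenesis, and MS1 is a PHD-finger regulator of the late tapetum whose mutant lacks viable pollen. The ap3 and matching wild-type tissue was the inflorescence meristem with buds no older than early stage 10. For nzz, ms1 and their wild type the tissue ran to stage 13. Each of these mutants had 4 arrays, with mutant RNA in Cy3 on 2 of them and in Cy5 on the other 2. A separate ms1 series split ms1 and wild-type flowers by age into 7 pools. Each pool had 3 arrays, from sets 1, 2 and 3 collected on different days. Mutant RNA carried Cy5 in set 2 and Cy3 in the other sets, so the effects of dye and of set cannot be told apart in the series. Every sample held tissue of 50 plants grown at 20 °C. Alleles, ecotype and plant age are not stated, nor is it stated that the 4 arrays of a mutant came from 4 separate collections, so p-values may in part measure technical spread.

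The deposited ratios were read as log10 and turned into log2 of mutant over wild type, so negative values mean lower in the mutant. Neither the base nor the numerator is stated. With base 2, every log2 value below would be smaller by a factor of 3.32 and no call would change. The direction is likely, not settled: it rests on the absence of viable pollen in ms1, on the lower sporogenous expression that the design expected in nzz, and on the side taken by pollen genes. The opposite sign would swap every higher with every lower. Whether the values are already turned to the genotype or still run by dye is inferred too. If they ran by dye, none of the 4 genes would be called in any comparison. In nzz, all 4 had the same sign in both dye orientations as the values stand. Over probes never missing or at the limit, arrays of opposite dye correlated at r = 0.501 to 0.572 in nzz and 0.102 to 0.268 in ms1. In ap3, r was -0.105 to 0.063 across dyes, against 0.441 to 0.591 within a dye. In series sample 1 it was -0.606 to -0.037 across dyes, against -0.081 for the 1 pair within a dye. In samples 3, 4 and 5 it was 0.066 to 0.398, 0.043 to 0.563 and 0.127 to 0.539 across dyes. The pairs within a dye had 0.134, 0.207 and 0.243 there. In samples 2, 6 and 7 the values across dyes lay on both sides of 0. Read by dye, 514 probes were called in ap3 and 642 in series sample 1, against 46 and 2. In nzz that reading called 742, against 3967. No ratio goes beyond 6.64 in either direction, a limit of 100-fold at which a value is only a bound. Such values followed the dye: 96.4% were negative where the mutant was in Cy3, and 98.5% were positive where it was in Cy5. The bHLH probes reached the limit on 3 arrays and had 2 missing values. SPL, the only mutated gene with a named probe, stood at -0.26 ± 0.12 in nzz (SE, n = 4 arrays, adjusted p = 0.174 in limma). The position of the probe relative to the lesion is unknown, and it is no check of the label.

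By the labels, the series begins with mature flowers in sample 1 and ends with the meristem and youngest buds in sample 7. The mature pollen genes went against that order. Of 12 measured, none was called in sample 1, where 0.00767% of all probes were called. In samples 6 and 7, 5 and 4 were called lower, against 0.713% and 0.552% of all probes. The series samples are therefore given by number alone, and no age is attached to any result.

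In nzz, AMS fell by 5.32 on the log2 scale (SE 0.61, n = 4 arrays, 1 of them at the limit). bHLH091 fell by 2.43 ± 0.54 and bHLH010 by 1.19 ± 0.29 (SE, n = 4 arrays each). bHLH089 stood at -1.47 ± 0.86 and did not pass the test. Thus 3 of 4 genes were called lower, against a background of 6.91% of all probes called lower and 15.2% called in either direction.

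On the 4 nzz arrays, AMS had log2 ratios of -4.84, -4.87, -6.64 and -4.94. The third, on a Cy3 array, lies at the limit, and that single value is a bound. The other 3 arrays, from both dye orientations, lay close together and less low than the fitted ratio. With limited values taken as missing the fitted ratio was -4.97 (adjusted p = 0.00223 in limma). The adjusted p for AMS was 0.000867 in limma, and it stayed between 0.00436 and 0.00779 when any 1 array of nzz was left out.

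The nzz ratios of bHLH091, one of the redundant trio, were -3.27, -1.08, -2.82 and -2.55. Those of bHLH010 were closer together, at -1.74, -1.13, -1.07 and -0.82. For bHLH089 they were -1.82, -1.87, -0.63 and -1.57. All 16 values lay below 0, and 13.9% of all probes were negative on every nzz array. The adjusted p from limma was 0.019 for bHLH091, 0.027 for bHLH010 and 0.287 for bHLH089. The calls for bHLH010 and bHLH091 depended on single arrays. bHLH010 lost its call without any 1 of the 4 (adjusted p 0.0548 to 0.134), and bHLH091 kept it only without replicate 2 (0.0327, against 0.0583 to 0.102 without another). The spread of bHLH089 came in part from a limited value in ap3, because the mutants shared 1 error estimate. With limited values missing, bHLH089 was also called lower in nzz at the same ratio (adjusted p = 0.0393 in limma, against 8.29% of all probes called lower).

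**Figure D1:**
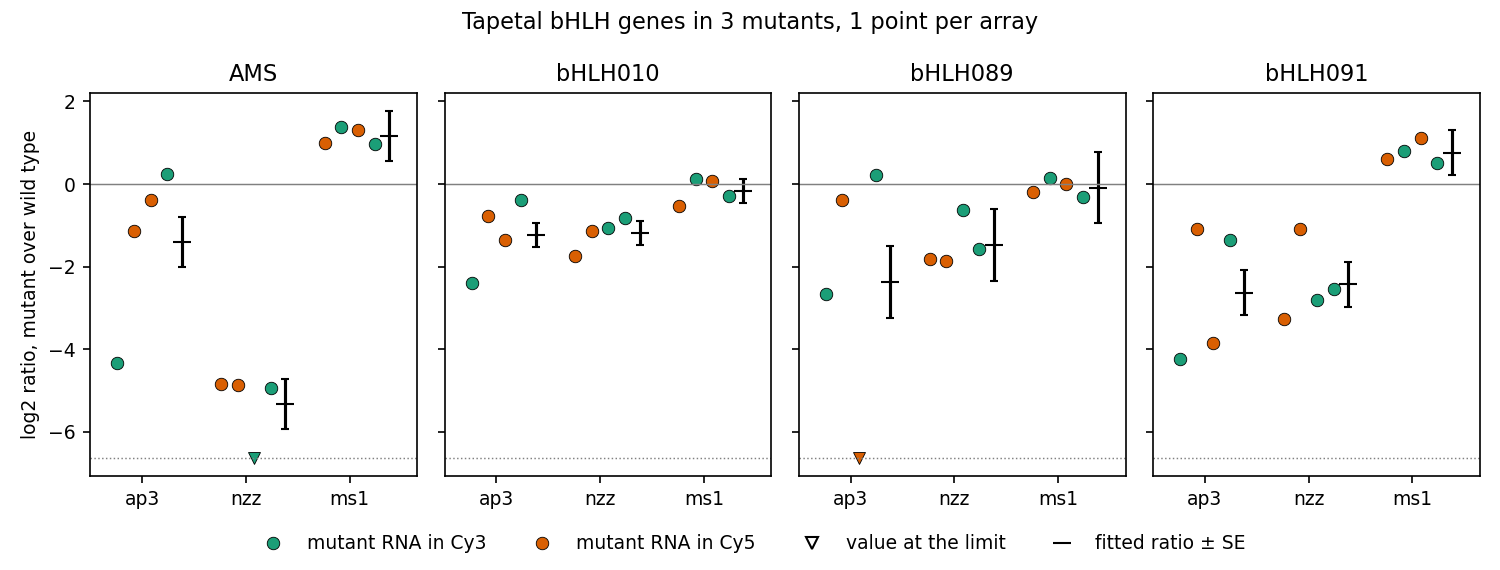
Log2 ratio of mutant over wild type on each array (vertical axis) for the 4 bHLH genes in ap3, nzz and ms1. Points are arrays, coloured by the dye of the mutant RNA, triangles lie at the limit of -6.64, and the bar is the fitted ratio with its SE. All 16 nzz values lie below 0, whereas the ms1 values of AMS and bHLH091 all lie above it.

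In ms1 inflorescences none of the 4 genes was called, with 2.18% of all probes called. AMS had ratios of 1.00, 1.39, 1.30 and 0.97, higher than wild type on every array, with a fitted ratio of 1.17 ± 0.61 (SE, n = 4 arrays, 95% interval -0.20 to 2.54). The ratios of bHLH091 were 0.61, 0.79, 1.11 and 0.51, with a fitted ratio of 0.76 ± 0.54. Both were positive on all 4 arrays, as were 7.93% of all probes. The arrays of bHLH010 ran from -0.53 to 0.11 and those of bHLH089 from -0.30 to 0.14, on both sides of 0. The adjusted p was 0.415 for AMS, 0.548 for bHLH091, 0.855 for bHLH010 and 0.989 for bHLH089 in limma. The SD of AMS within ms1 was 0.21, smaller than the SE of the fit, whose error is shared with ap3, where the AMS arrays had an SD of 2.03.

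In young ap3 inflorescences, which lack stamens, no gene of the 4 passed the test, and only 0.177% of all probes did. AMS had ratios of -4.33, -1.14, -0.38 and 0.23. The ratios of bHLH010 were -2.40, -0.78, -1.36 and -0.39, and those of bHLH089 were -2.65, -0.39, -6.64 (at the limit) and 0.22. For bHLH091 they were -4.25, -1.09, -3.84 and -1.35. Replicate 1 was the lowest array for AMS, bHLH010 and bHLH091. The limited bHLH089 value stood on an array with ap3 RNA in Cy5, where 1.5% of limited values were negative. The fitted ratios were -2.63 ± 0.54 for bHLH091, -2.37 ± 0.86 for bHLH089, -1.40 ± 0.61 for AMS and -1.23 ± 0.29 for bHLH010 (SE, n = 4 arrays each). Their adjusted p-values in limma were 0.138, 0.417, 0.51 and 0.183 in that order. bHLH010 and bHLH091 were negative on all 4 arrays, as were 7.98% of all probes. Single arrays moved these ratios. That of AMS was -0.44 with replicate 1 left out and -2.15 with replicate 4 left out. That of bHLH010 was -0.78 with replicate 1 left out, and that of bHLH089 was -0.96 with replicate 3, its limited array, left out. With all 33 arrays in 1 fit, bHLH091 (adjusted p = 0.00209) and bHLH010 (adjusted p = 0.00568) passed the test at the same ratios, with 0.184% of all probes called lower.

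In the tests of differences between mutants, only AMS of the 4 genes was called, and it was not tested against the others. Its ratio was higher in ms1 than in nzz by 6.49 ± 0.86 on the log2 scale (SE, 95% interval 4.55 to 8.43, adjusted p = 0.0165 in limma). Of all probes, 0.654% were called higher in that difference. It was lost without any 1 of 5 arrays, namely ms1 replicates 1 and 2 and nzz replicates 1, 2 and 3 (adjusted p 0.0505 to 0.0669), while the difference itself stayed between 6.13 and 6.77. The other differences of ms1 minus nzz were 3.19 ± 0.77 for bHLH091, 1.38 ± 1.22 for bHLH089 and 1.03 ± 0.41 for bHLH010, with adjusted p-values in limma of 0.125, 0.621 and 0.308. The arrays of ms1 all lay above those of nzz for each of the 4 genes, as for 3.6% of all probes.

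AMS was also higher in ap3 than in nzz, by 3.92 ± 0.86 (adjusted p = 0.0478 in limma), with 2.2% of all probes called higher. The tissues differ in age between these mutants, and the call held in 1 of 8 fits that left out an array, the one without ap3 replicate 1 (adjusted p = 0.00434, against 0.0799 to 0.144 in the others). For bHLH010 the ap3 minus nzz difference was -0.046 (95% interval -0.98 to 0.89). It was -0.20 (-1.94 to 1.54) for bHLH091 and -0.89 (-3.66 to 1.87) for bHLH089, intervals too wide to show that the ratios were alike. Between ap3 and ms1 no gene was called, with 0.312% of all probes called; bHLH091 differed by -3.39 ± 0.77 (adjusted p = 0.131 in limma) and AMS by -2.57 ± 0.86 (adjusted p = 0.348). With ap3 replicate 1 left out, the AMS difference was -1.61.

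**Figure D2:**
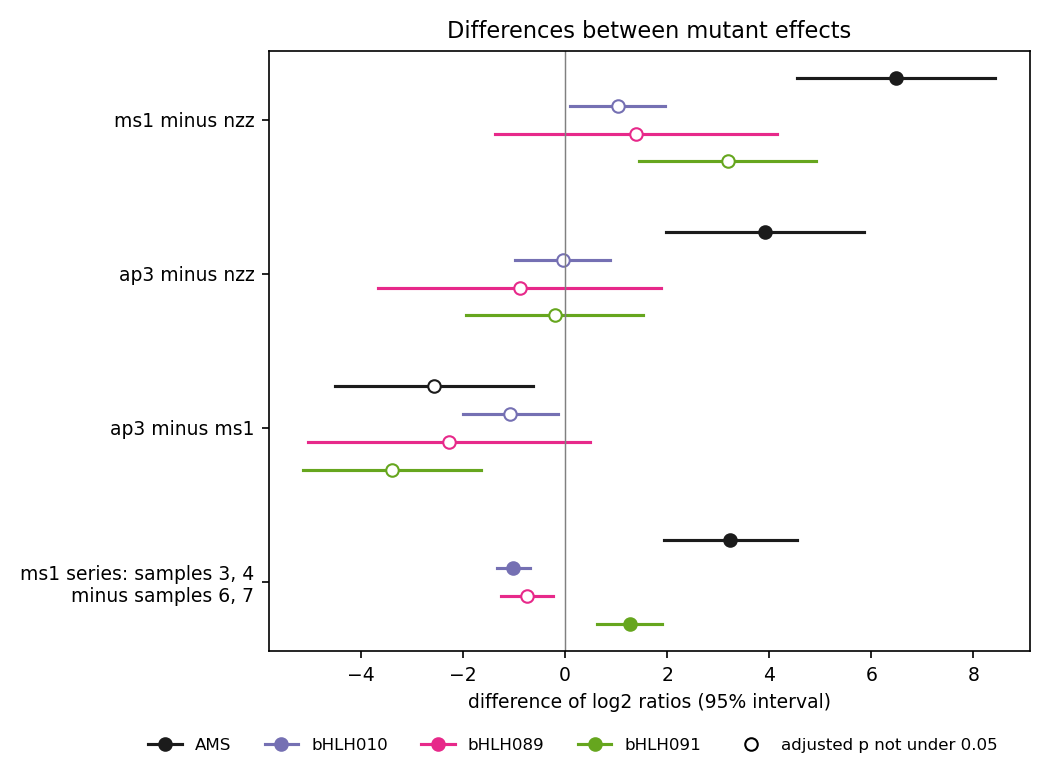
Differences of log2 ratios (horizontal axis) with 95% intervals for the 4 bHLH genes, between mutants and between groups of ms1 series samples. Filled points had an adjusted p under 0.05 in limma. AMS is filled in the ms1 minus nzz and ap3 minus nzz rows, at 6.49 and 3.92. In the series row AMS (3.24), bHLH010 (-1.01) and bHLH091 (1.26) are filled.

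The ms1 series split the 4 genes by direction. In samples 3, 4 and 5, AMS was higher in ms1 than in wild type on all 9 arrays, and bHLH010 and bHLH089 were lower on all 9. AMS stayed higher on the 3 arrays of sample 6, so that its 12 arrays of samples 3 to 6 ran from 1.14 to 2.56, a run of positive values shared by 0.703% of all probes. A run of 9 negative values in samples 3 to 5, as for bHLH010 and bHLH089, was shared by 1.83%. Both windows lie within the samples where these genes kept 1 sign, and their arrays come from 3 shared sets. The shares therefore describe the runs and test nothing.

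For AMS, sets 1, 2 and 3 gave 0.27, -0.34 and 0.58 in sample 1 and 1.00, 0.66 and 0.71 in sample 2. The ratios were 1.87, 2.22 and 1.76 in sample 3 and 1.95, 1.78 and 2.18 in sample 4. They were 1.14, 1.19 and 2.56 in sample 5 and 1.24, 2.10 and 2.14 in sample 6. Sample 7 stood apart, with no value in set 1, -1.99 in set 2 and -6.64, the limit, in set 3. AMS was thus positive on every array of samples 2 to 6 and negative on both measured arrays of sample 7.

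The fitted AMS ratios were 2.01, 2.03, 1.69 and 1.88 in samples 3, 4, 5 and 6 (SE 0.58, n = 3 arrays each), and none passed the test (adjusted p 0.17, 0.183, 0.338 and 0.195 in limma). In sample 7, AMS stood at -4.32 ± 0.70 and was called lower (adjusted p = 0.00936 in limma, with 0.552% of all probes called lower). That call rests on 2 values, of which 1 is a bound on a Cy3 array, and it could not be tested without either of them. The same pair of values sets the error of the other samples. With sample 7 left out, an alternative chosen after seeing the data, the SE was 0.27. AMS then rose in samples 3, 4, 5 and 6, by 1.92, 1.94, 1.60 and 1.79, with adjusted p-values in limma of 0.00161, 0.00161, 0.00792 and 0.00554. In those samples, 0.702%, 0.61%, 0.56% and 0.161% of all probes were called higher in that fit. With limited values taken as missing, AMS was called in the same 4 samples (adjusted p 0.000668 to 0.00334 in limma), where 0.923%, 0.89%, 0.891% and 0.368% of all probes were called higher.

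For bHLH010, the sets gave -0.68, -0.95 and -0.80 in sample 3 and -0.85, -1.12 and -0.71 in sample 4, and -0.62, -1.26 and -0.48 in sample 5. In sample 6 they gave 0.51, -0.01 and 0.04. The 9 values of samples 3 to 5 and the 6 of samples 6 and 7 overlapped at 1 array, set 2 of sample 7, at -0.50. bHLH010 fell by 0.88, 0.97 and 0.86 in samples 3, 4 and 5 (SE 0.15, n = 3 arrays each, adjusted p 0.00451, 0.00245 and 0.00785 in limma). Of all probes, 0.833%, 0.652% and 0.79% were called lower in these samples. The call in sample 4 held without any 1 set (adjusted p 0.0251 to 0.0386). In sample 3 it was lost without set 3 (0.0521), and in sample 5 without set 1 (0.0542) or set 2 (0.2). Its dye term was also called, at -0.22 ± 0.06 (adjusted p = 0.0165), as were the dye terms of 27.5% of all probes in the series. Without a dye term the call held in sample 4 (0.0453) and was lost in samples 3 (0.0793) and 5 (0.104).

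For bHLH089 the ratios were smaller or more scattered, at -0.51, -0.39 and -0.67 in sample 3, -0.59, -1.23 and -0.75 in sample 4 and -0.43, -1.38 and -0.62 in sample 5. Its fitted ratios there were -0.55, -0.89 and -0.84 (SE 0.24, n = 3 arrays each), with adjusted p-values of 0.484, 0.141 and 0.16 in limma. In samples 6 and 7 its 6 arrays ran from -0.42 to 1.01. The pattern of bHLH089 over the samples ran beside that of bHLH010 without passing the test.

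For bHLH091 the sets gave 1.23, 0.21 and 0.78 in sample 2, 1.39, 0.59 and 0.89 in sample 3 and 1.25, -0.15 and 1.07 in sample 4. Its 5 measured values of samples 6 and 7 all lay below 0, from -0.68 to -0.26. The fitted ratios were 0.67, 0.89 and 0.65 in samples 2, 3 and 4 (SE 0.28, n = 3 arrays each), and no single sample was called (adjusted p = 0.274 in limma in sample 2, where 0.53% of all probes were called). Set 2 gave the lowest of the 3 values in samples 2, 3 and 4.

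**Figure D3:**
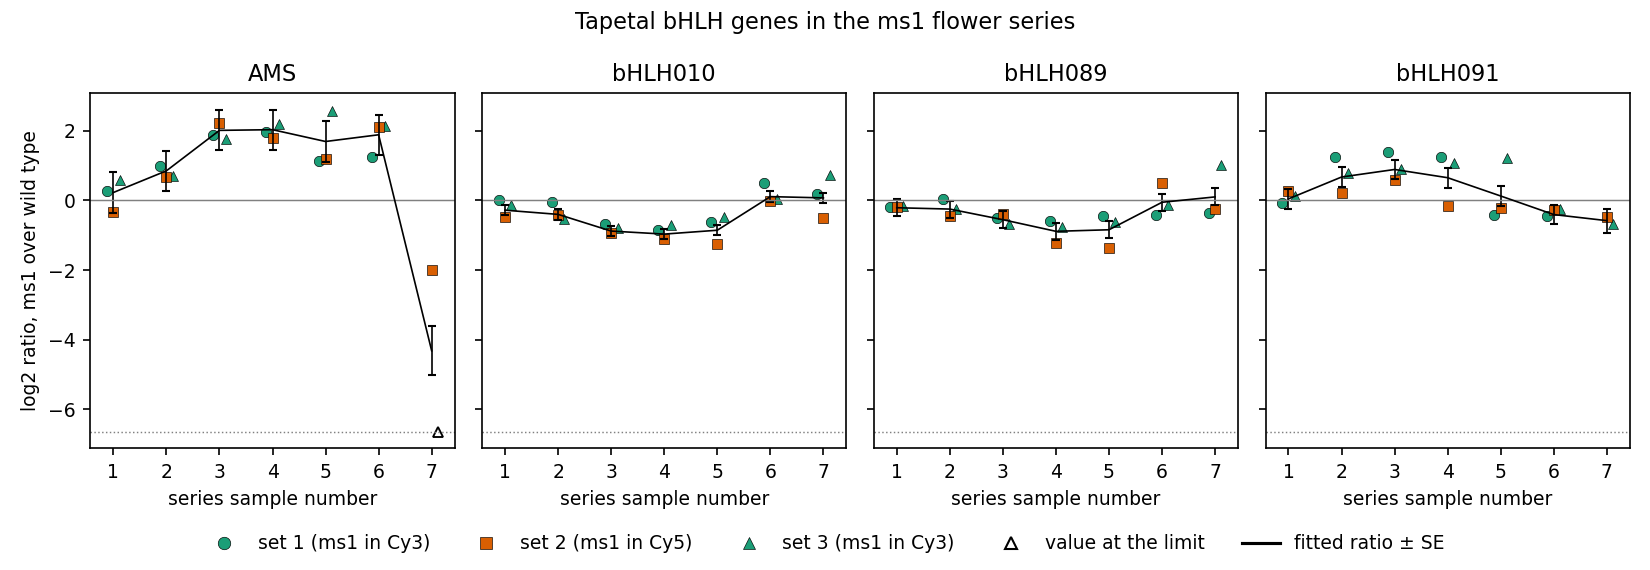
Log2 ratio of ms1 over wild type (vertical axis) against series sample number for the 4 bHLH genes. Points are arrays, with shapes and colours for the 3 sets, open triangles lie at the limit, and the line joins fitted ratios with their SE. AMS lies above 0 on all 12 arrays of samples 3 to 6, whereas bHLH010 and bHLH089 lie below 0 on all 9 arrays of samples 3 to 5.

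The moderated F test over the 7 samples asked whether the ms1 ratio differed among them, and 1.35% of all probes were called. AMS passed it (F = 11.5, adjusted p = 0.0151 in limma), as did bHLH010 (F = 9.27, adjusted p = 0.0283). bHLH091 (F = 3.61, adjusted p = 0.561) and bHLH089 (F = 2.55, adjusted p = 0.988) did not. With sample 7 left out, bHLH010 passed (adjusted p = 0.0274) and AMS did not (F = 7.91, adjusted p = 0.0952). Leaving out single arrays, bHLH010 passed in 10 of 21 fits. AMS passed in the 19 fits that could test it, but not tested were those without set 2 or set 3 of sample 7, the arrays that hold its only values there.

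Samples 3 and 4 minus samples 6 and 7 gave a direct difference, a split chosen with earlier results known. Of all probes, 1.41% were called higher and 0.757% lower. bHLH010 was lower in samples 3 and 4 by 1.01 ± 0.15 on the log2 scale (a difference of -1.01, adjusted p = 0.00118 in limma), in all 12 fits without an array. bHLH089 differed by -0.74 ± 0.24 (adjusted p = 0.201). bHLH091 was higher by 1.26 ± 0.30 (adjusted p = 0.0439), a call kept in 2 of 10 such fits. AMS was higher by 3.24 ± 0.61 (adjusted p = 0.00965), but against sample 6 alone the AMS difference was 0.14 (adjusted p = 1), so sample 7 carried it. Against sample 6 alone bHLH010 still differed by -1.03 (adjusted p = 0.00396), and bHLH091 by 1.18 (adjusted p = 0.175).

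Ordered by fitted ratio over the 10 groups, AMS ran from nzz through series sample 7 and ap3 up to series samples 3 and 4. Of its 9 neighbouring pairs in that order, only series samples 2 and 1 had arrays that did not overlap. Over all probes, 0.836% of such neighbouring pairs did not overlap. bHLH010 and bHLH089 were lowest in ap3 and nzz, and every neighbouring pair overlapped. bHLH091 was also lowest in ap3 and nzz, and series samples 7 (with 2 values), 6 and 1 each stood clear of the group next below. Across the 10 groups, which share an error within each fit, the fitted ratios of bHLH010 and bHLH089 correlated at r = 0.878. For bHLH091, r was 0.734 with AMS, 0.726 with bHLH089 and 0.418 with bHLH010, and for AMS it was 0.275 with bHLH089 and 0.121 with bHLH010. Over the 7 series samples alone, r was 0.951 for bHLH010 and bHLH089, and bHLH091 had r of -0.815 with bHLH010 and -0.656 with bHLH089. AMS had r of -0.595 with bHLH010, -0.656 with bHLH089 and 0.618 with bHLH091, the last of which was 0.151 over samples 1 to 6. These are descriptions of few points from shared sets.

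Among 3666 named probes with enough spread over the 10 groups (an SD of at least 0.5), the likeness to each gene was ranked by Pearson's r of fitted ratios. Nearest to AMS were AT3G27100 (0.93) and SDT (0.93), a spermidine disinapoyl acyltransferase, followed by AT1G25230 (0.91), AT2G45750 (0.90) and AT2G29800 (0.90). SDT had ratios of -1.58 in nzz, 1.65 in ms1 and -1.95 in series sample 7. Nearest to bHLH010 was bHLH089 (0.88), ahead of AT3G50800 (0.83), AT1G50820 (0.82), UPEX1 (0.82) and AT2G03850 (0.81). The probes closest to bHLH089, after bHLH010, were sks18 (0.87), AT5G21940 (0.84), AT1G73890 (0.84) and AT4G11340 (0.84). For bHLH091 they were AT3G55570 (0.96), AT5G38200 (0.95), AT1G72230 (0.95), AT2G37140 (0.94) and AT1G67920 (0.94).

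Other genes of the anther pathway moved beside these ratios, and in whole inflorescences fewer cells of a type cannot be told apart from less RNA per cell. Of 7 other tapetal transcription factors listed, DYT1 and TDF1 among them, none had a named probe. Among 16 sporopollenin and pollen wall genes of the tapetum, 3 were measured. All 3 were called lower in nzz, where 6.91% of all probes were called lower. They were UPEX1 (-5.05), which acts in exine formation, SHT (-5.01), a spermidine hydroxycinnamoyl transferase, and SWEET8 (-4.21), a sugar transporter. SHT was at the limit on 1 of its 4 nzz arrays, so its ratio is in part a bound. In ms1 none of these 3 genes was called, with 2.18% of all probes called. The ms1 minus nzz difference was called higher for UPEX1 (4.99) and SWEET8 (4.49), as for AMS and 0.654% of all probes. For SHT that difference was 1.46 (adjusted p = 0.743 in limma). SHT stood at -3.54 in ms1 (adjusted p = 0.269) and at -4.49 and -4.50 in series samples 3 and 4, none of them called. In ap3, UPEX1 was called lower (-2.62, adjusted p = 0.0372 in limma), as were 0.123% of all probes, and SHT and SWEET8 were not called. UPEX1 was also called higher in ap3 minus nzz (2.44, adjusted p = 0.0419 in limma), as were AMS and 2.2% of all probes. Of 4 measured late tapetum and pollen coat genes, ATA27 (-6.22), ATA20 (-4.46) and EXL5 (-4.33) were called lower in nzz, again against 6.91% of all probes. ATA27 was at the limit on 2 of its 4 nzz arrays, so its ratio is in part a bound. EXL5, a lipase of the pollen coat, also fell in ms1 (-3.40), where 1.74% of all probes were called lower. In series samples 3, 4 and 5 the EXL5 ratios were -5.50, -5.81 and -5.39. All were called lower, as were 0.833%, 0.652% and 0.79% of all probes. These are the samples where bHLH010 fell and AMS was positive on every array.

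Of 5 measured upstream anther regulators, EMS1 was called lower in nzz (-0.55), as were 6.91% of all probes. EMS1 is the receptor kinase needed for tapetal identity. It was called higher in the ms1 minus nzz difference (0.81), as were 0.654% of all probes. None of the 4 measured meiocyte genes was called lower in nzz, and SDS, a meiotic cyclin, was called higher (0.49). Of all probes, 6.91% were called lower and 8.32% higher there, so 4 genes are too few to set apart from all probes. Of 12 mature pollen genes, 8 were called lower in nzz, 5 in ms1 and 1 in ap3, VGD1 (-2.36), which encodes a pollen pectin methylesterase. Of all probes, 6.91%, 1.74% and 0.123% were called lower in those mutants. The sign of the ratios was read in part from pollen genes, so the direction of these genes is no independent result. The medians of all 12 were -1.64 in nzz, -1.16 in ms1 and -0.39 in ap3. The part of tapetal and pollen cell loss in the bHLH ratios was not tested. Another 9 bHLH genes were found by symbol or synonym only, an incomplete set that does not stand for the family. In nzz they had a median of -0.018, with AT1G72210 (0.86) called higher and bHLH34 (-0.60) lower. Of all probes, 8.32% were called higher and 6.91% lower in nzz, so 9 genes are too few to set apart from all probes. The 4 tapetal bHLH genes had a median of -1.95 in nzz, and all probes 0.099. Of 4 measured genes on a list of carpel bHLH genes, only BPE was called in any comparison. It is known for limiting petal cell size, and the organ behind its calls was not tested. BPE was called lower in nzz (-1.28), ms1 (-0.86) and series sample 6 (-0.92), as were 6.91%, 1.74% and 0.713% of all probes. It was called higher in ap3 minus nzz (1.19, adjusted p = 0.0237 in limma), as were 2.2% of all probes.

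**Figure D4:**
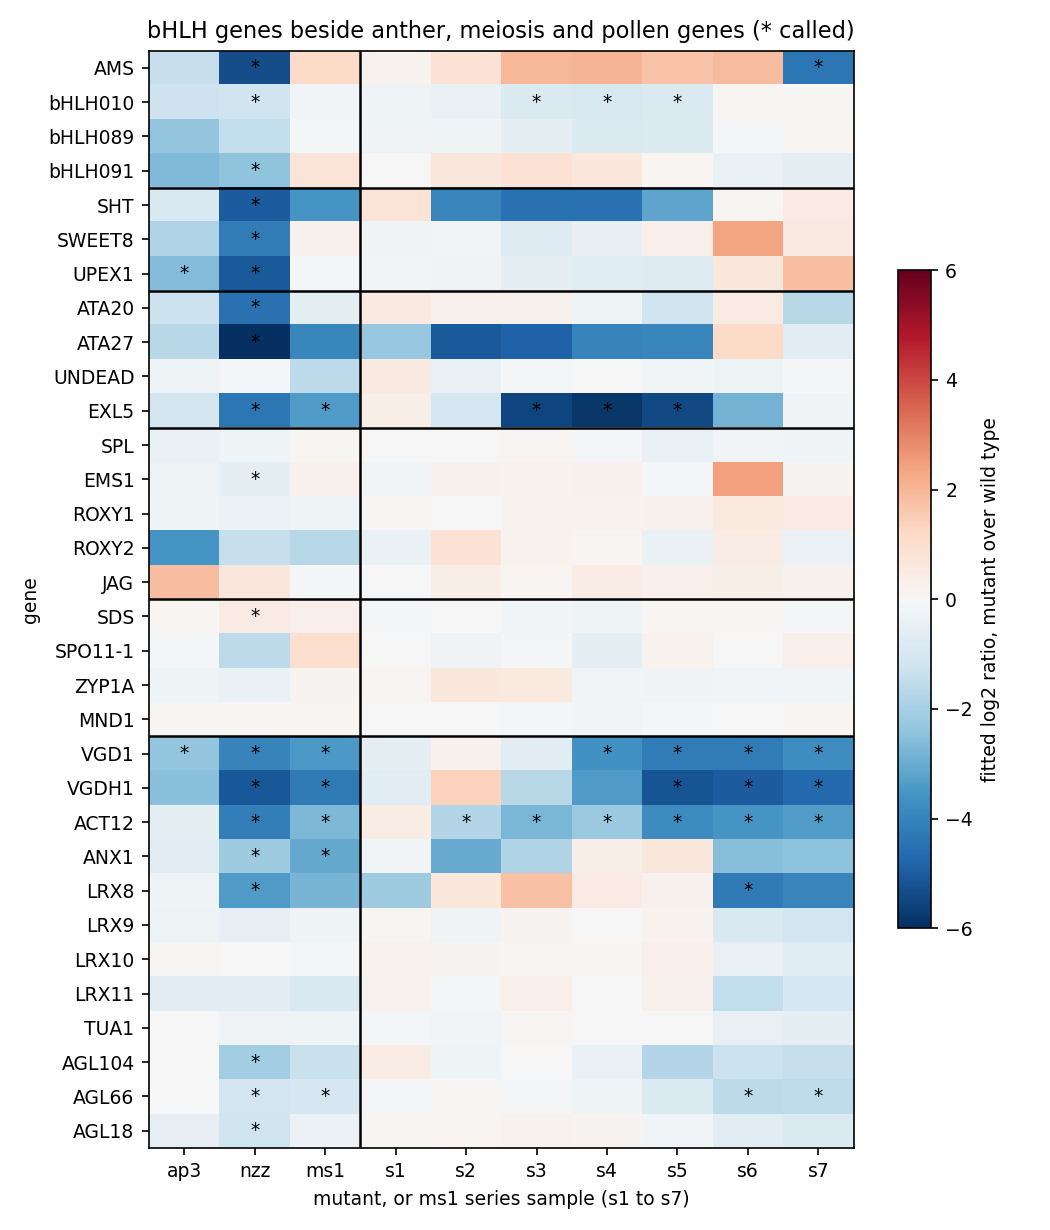
Fitted log2 ratios of mutant over wild type (colour) for the 4 bHLH genes and measured genes of the tapetum, upstream regulators, meiosis and mature pollen, in 3 mutants and 7 ms1 series samples (s1 to s7). Stars mark an adjusted p under 0.05 in limma. In nzz, AMS, bHLH010 and bHLH091 are starred beside all 3 pollen wall genes, and in the series bHLH010 and EXL5 are both starred in s3, s4 and s5.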

How the data were processed

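The authors deposited 1 normalized table of 26540 spots, of which 450 were controls and were left out. The values that the authors deposited are log ratios of both RNAs on an array with hard limits at -2 and 2, read here as log10 and multiplied by 3.32 to give log2; the scanner and the normalization are not stated. Arrays had 31 to 1328 missing values, 2.37% to 17.7% of values at the limit and medians of -0.08 to 0.14 (log2). The number of arrays limits the precision. Genes were named through the platform annotation and the RefSeq table of assembly TAIR10.1.

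A probe needed 3 values per mutant, or 2 per series sample, to be tested with limma 3.58.1 in R 4.3.3 (lmFit, eBayes, 1 coefficient per group and a dye term). The 12 mutant arrays formed 1 fit and the 21 series arrays another. Differences were fitted as contrasts, and calls used p-values adjusted by Benjamini-Hochberg over every gene probe tested, with a threshold of 0.05. The steps were tested on simulated data. The genes and lists were chosen with earlier results of these data known. All 4 bHLH genes are named; of the lists, only called genes, or at most 4 where none was called. Same-numbered arrays deviated together in 63 of 63 pairs of the series (median r = 0.53), whose sets were collected on different days per the labels. Dye was not taken out of these series deviations, so a shared set and a shared dye cannot be told apart in them. In the mutants, where dye was taken out, 6 of 12 pairs deviated together (median r = 0.051). Alternatives covered the dye term, scaling, limited values, the reading of the sign, joint fits, replicate blocks and single arrays left out.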

Additional observations from a re-analysis of the deposited data

Results flagged for a closer look

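AMS in nzz had 1 array far from the other 3, at -6.64, which is the limit of the values; chance flags about 1 in 20 groups of 4.

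Over the 7 ms1 series samples, the ms1 ratio of AMS differed (adjusted p = 0.0151 in limma), and so did that of bHLH010 (adjusted p = 0.0283). The difference of samples 3 and 4 minus samples 6 and 7 was 3.24 for AMS, -1.01 for bHLH010 and 1.26 for bHLH091, by the test of the difference itself. That of AMS rests on sample 7, where it had 2 values of 3 and 1 of them at the limit.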

How the results depend on the processing

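The settings counted here include log base 2, a rescaling that could change neither a direction nor a call. Under settings other than leaving out single arrays, member values kept direction and side of the threshold in 530 of 607 cases. In 37 cases the sign changed. Of the changes, 35 came from reading the values as unturned dye ratios, under which 0 of the 4 bHLH genes was called in nzz, in ms1 minus nzz, in ap3 minus nzz, in samples 3, 4, 5 and 7, in samples 3 and 4 minus 6 and 7, and in the F test. In that reading the ap3 ratios were 0.64 for AMS, 0.16 for bHLH010 and 0.17 for bHLH091, and the nzz ratios 0.47 for AMS and 0.25 for bHLH091. AMS stood at -0.016 in ms1, -0.48 in ms1 minus nzz, 0.66 in ap3 minus ms1 and, in samples 1 to 7, at -0.15, -0.11, -0.23, -0.54, -0.59, -0.18 and 2.33. bHLH091 stood at -0.15 in ms1 minus nzz, 0.062 in ap3 minus ms1 and, in samples 2 to 7, at -0.53, -0.49, -0.75, -0.27, 0.22 and 0.10. bHLH010 stood at 0.41 in ap3 minus nzz, 0.23 in ap3 minus ms1, 0.025 in sample 3, -0.34 in sample 6 and -0.63 in sample 7, and bHLH089 at 0.13, 0.22 and -0.42 in samples 3, 6 and 7. Samples 3 and 4 minus 6 and 7 gave -1.45 for AMS, 0.50 for bHLH010, 0.12 for bHLH089 and -0.78 for bHLH091. The other sign changes were of ap3 minus nzz, for bHLH010 with arrays centred (0.015) and for bHLH089 with limited values missing (0.52).

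Counts of bHLH genes called moved as follows. With arrays scaled to one spread, 1 was called in ap3, 0 in ms1 minus nzz and 0 in ap3 minus nzz. With all 33 arrays in 1 fit the counts were 2 in ap3, 2 in ms1 minus nzz, 1 in ap3 minus ms1, and 0 in samples 3 and 5. The replicate block, by number in the mutants, gave 0 in ms1 minus nzz and 0 in ap3 minus nzz (adjusted p of AMS 0.0599 and 0.067 in limma). By set in the series, where the numbers stand for collection days per the labels, it changed no count. In the mutants the numbers do not pair the arrays. Without a dye term the count was 0 in ap3 minus nzz, 0 in samples 3 and 5 and 1 in the F test. The robust prior gave 0 in ap3 minus nzz. Limited values taken as missing gave 0 in ap3 minus nzz, 2 in samples 3, 4 and 5, 1 in sample 6, 0 in sample 7 and 1 in the F test. Only probes never missing or at the limit, which drops AMS and bHLH089 from the mutants and AMS and bHLH091 from the series, gave 0 in ms1 minus nzz, 0 in ap3 minus nzz, 0 in sample 7, 1 in samples 3 and 4 minus 6 and 7 and 1 in the F test. Series sample 7 left out, chosen after seeing the data, gave 2 in samples 3, 4 and 5, 1 in sample 6, 1 in samples 3 and 4 minus sample 6 and 1 in the F test. In nzz, where 3 were called, the count was 2 with arrays scaled, with each mutant fitted alone and with only probes never missing or at the limit, and 4 with limited values missing. In samples 3 and 4 minus 6 and 7, also 3, it was 2 without a dye term, with arrays scaled, with limited values missing and with all 33 arrays. The cause of the other changes was not tested.

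Leaving out 1 array at a time, the number of bHLH genes called ranged from 1 to 2 of 4 in nzz, from 0 to 1 in ms1 minus nzz, ap3 minus nzz and samples 3, 5 and 7, from 1 to 2 in the F test and from 1 to 3 in samples 3 and 4 minus 6 and 7. Uncalled values crossed 0 in some of these fits. In ms1, bHLH089 ran from -0.31 to 0.18. In ap3 minus nzz, bHLH010 ran from -0.34 to 0.41, bHLH089 from -1.83 to 0.52 and bHLH091 from -0.75 to 0.34. In sample 1, AMS ran from -0.039 to 0.70 and bHLH091 from -0.24 to 0.20; in sample 5, bHLH091 ran from -0.32 to 0.50. In sample 6, bHLH089 ran from -0.46 to 0.18. In sample 7, bHLH010 ran from -0.15 to 0.29 and bHLH089 from -0.31 to 0.39.

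Over all probes, the counts called moved by more than 1.5 times in every comparison. The main count and its range were 46 (6 to 514) for ap3, 3967 (742 to 4567) for nzz and 567 (0 to 761) for ms1. For ms1 minus nzz they were 178 (9 to 351), for ap3 minus nzz 754 (21 to 1099) and for ap3 minus ms1 81 (8 to 245). In samples 1 to 7 they were 2 (0 to 642), 138 (55 to 834), 399 (64 to 572), 331 (45 to 493), 350 (39 to 627), 230 (76 to 708) and 148 (47 to 342). The contrast of samples gave 565 (0 to 888) and the F test 350 (12 to 611). The F test over all 33 arrays was not run.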
